A study of Mus musculus with 6 samples.

Results

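The thioredoxin system was followed through 10 transcripts in an immortalized mouse podocyte line: thioredoxin (Txn1), the thioredoxin reductases Txnrd1 and Txnrd2, sulfiredoxin (Srxn1) and the peroxiredoxins Prdx1, Prdx2, Prdx3, Prdx4, Prdx5 and Prdx6. They were taken by gene name from a table of 53715 genes, and each name matched 1 row. Podocytes are the epithelial cells of the kidney glomerulus that carry its filtration slits. The study asked how transcripts differ when TFEB, a transcription factor known to activate lysosome and autophagy genes, is depleted. Cells labelled TFEB knockdown were transfected with an siRNA and cells labelled WT with a scrambled siRNA, with 3 libraries in each group. Both groups came from the same conditionally grown line, which proliferated at 33 °C in 10% serum with interferon gamma and differentiated at 37 °C in 5% serum with type I collagen for 10 to 14 days.

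Thioredoxin is a small protein with a pair of reactive cysteines that reduces disulfides in other proteins. Thioredoxin reductase, a selenoprotein, recharges it with electrons from NADPH. Peroxiredoxins remove hydrogen peroxide and organic peroxides with a cysteine that is oxidised in the reaction, and most of them are recharged by thioredoxin. At high peroxide this cysteine can be oxidised further, to a sulfinic acid, which inactivates the enzyme, and sulfiredoxin reverses that step for the typical 2-cysteine peroxiredoxins Prdx1 to Prdx4. The members are spread over the cell: Txn1, Txnrd1, Prdx1, Prdx2, Prdx6 and Srxn1 act mainly in the cytosol, Txnrd2 and Prdx3 in mitochondria, Prdx4 in the endoplasmic reticulum, and Prdx5 in mitochondria, peroxisomes and the cytosol. Txnrd1, Prdx1 and Srxn1 are among the textbook targets of NRF2, a transcription factor that binds antioxidant response elements. They are not a full list of its targets among the members.

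Libraries held 18062898 to 20010130 reads in the Tfeb siRNA group and 20143910 to 20610888 reads in the scrambled siRNA group, derived from the deposited values in FPKM, a read level per kilobase of exon that is scaled to the depth of the library. Tfeb itself stood at 0.639, 0.714 and 0.822 FPKM in the 3 Tfeb siRNA libraries, against 1.80, 2.05 and 2.27 FPKM in the scrambled siRNA libraries, which is 35.5% of the scrambled mean (limma log2 fold change -1.05, SE 0.13, adjusted p = 0.00148; exact two-sided permutation p = 0.1, the smallest that 3 against 3 libraries allow). Among podocyte markers, Nphs1, Wt1 and Tcf21 were below 1 FPKM in each library, so the slit diaphragm gene nephrin was nearly absent. All 5 endothelial markers were below 1 FPKM as well. Summed markers of mesangial cells or fibroblasts ran from 41.0 to 42.6 FPKM in the Tfeb siRNA group and from 35.6 to 38.8 FPKM in the scrambled siRNA group, with Col1a1 called higher, Pdgfra and Col1a2 below 1 FPKM and no marker at 0 in every library. Summed macrophage markers ran from 6.12 to 7.26 FPKM in the Tfeb siRNA group and from 9.16 to 11.1 FPKM in the scrambled siRNA group, with Csf1r called lower and Ptprc, Adgre1 and Itgam below 1 FPKM. The part of these markers in the results below was not tested, and in bulk RNA fewer cells of a type cannot be told apart from less RNA per cell.

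Because the members that changed include known NRF2 targets, the promoters of all members were searched for antioxidant response element motifs and for the palindromic E-box that TFEB family factors are known to bind. RefSeq (GRCm38.p6) gave windows of 300 bases, from 250 before to 50 after a transcription start, for 9 of the 10 members, with 3 starts for Txnrd1. Letter patterns were searched on both strands. They were TGACNNNGC, the core of the antioxidant response element, then TGANTCAGC, an AP-1-like form of that element, and CACGTG. TGANTCAGC matches the core only where its free base N is C. The windows of 4 members held at least 1 match, namely Srxn1, Prdx1, Txnrd1 and Prdx4, and these are the 4 printed below, 5′ to 3′ on the strand of the gene, as the 250 bases before the start with matches in capitals.
Srxn1: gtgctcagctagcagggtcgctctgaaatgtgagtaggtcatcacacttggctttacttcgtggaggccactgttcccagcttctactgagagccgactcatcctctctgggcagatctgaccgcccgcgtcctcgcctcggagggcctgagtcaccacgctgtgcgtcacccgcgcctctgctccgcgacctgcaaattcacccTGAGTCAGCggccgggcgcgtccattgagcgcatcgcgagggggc
Prdx1: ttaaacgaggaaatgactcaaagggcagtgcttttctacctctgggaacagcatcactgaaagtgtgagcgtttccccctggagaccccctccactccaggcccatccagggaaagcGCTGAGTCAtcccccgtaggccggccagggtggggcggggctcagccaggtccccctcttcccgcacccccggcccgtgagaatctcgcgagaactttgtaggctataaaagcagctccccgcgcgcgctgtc
Txnrd1: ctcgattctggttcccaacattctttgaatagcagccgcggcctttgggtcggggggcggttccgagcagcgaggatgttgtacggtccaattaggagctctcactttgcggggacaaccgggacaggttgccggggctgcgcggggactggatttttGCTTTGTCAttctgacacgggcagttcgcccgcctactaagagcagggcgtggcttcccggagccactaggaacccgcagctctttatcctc
Prdx4: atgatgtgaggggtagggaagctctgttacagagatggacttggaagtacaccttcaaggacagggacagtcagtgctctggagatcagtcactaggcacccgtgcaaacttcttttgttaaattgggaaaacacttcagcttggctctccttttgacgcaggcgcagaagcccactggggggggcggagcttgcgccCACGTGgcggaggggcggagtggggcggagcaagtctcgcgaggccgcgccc
The Srxn1 stretch is chr2:152105274-152105523 on the plus strand, and its capitals mark TGANTCAGC with its first base 45 bases before the start; a TGACNNNGC match lies 29 bases after the start, beyond the printed stretch. In Prdx1 (chr4:116685349-116685598, plus strand) a match to both TGACNNNGC and TGANTCAGC, read on the other strand, begins 133 bases before the start. In Txnrd1 (chr10:82858956-82859205, plus strand) a match to TGACNNNGC on the other strand begins 92 bases before the middle of the 3 RefSeq starts, and the other two windows held none. In Prdx4 (chrX:155338461-155338710, minus strand) CACGTG begins 52 bases before the start, which lies inside the gene as the deposited table gives it. Over all 32851 RefSeq windows of this length, TGACNNNGC occurred in 12.4%, TGANTCAGC in 1.19% and CACGTG in 7.15%. These are letter matches and say nothing of which factor was bound in these cells.

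After Tfeb siRNA, 4 of the 10 transcripts rose (Srxn1, Txnrd1, Prdx4 and Prdx1), 2 fell (Txnrd2 and Prdx5) and 4 did not pass the test (Txn1, Prdx2, Prdx3 and Prdx6). All 10 passed the filter of a mean of 1 FPKM. A transcript was called when its Benjamini-Hochberg adjusted p, from limma on log2(FPKM + 0.5) over all 12257 tested genes, was below 0.05. Of those genes 33.3% were called, 16.9% higher and 16.4% lower. The groups did not overlap for 7 of the 10 members (4 higher, 3 lower), against 48.7% of all tested genes (25.3% higher, 23.5% lower). The median log2 fold change was 0.04 over the members and 0.02 over all tested genes, so no shared direction appears in the median.

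**Figure D1:**
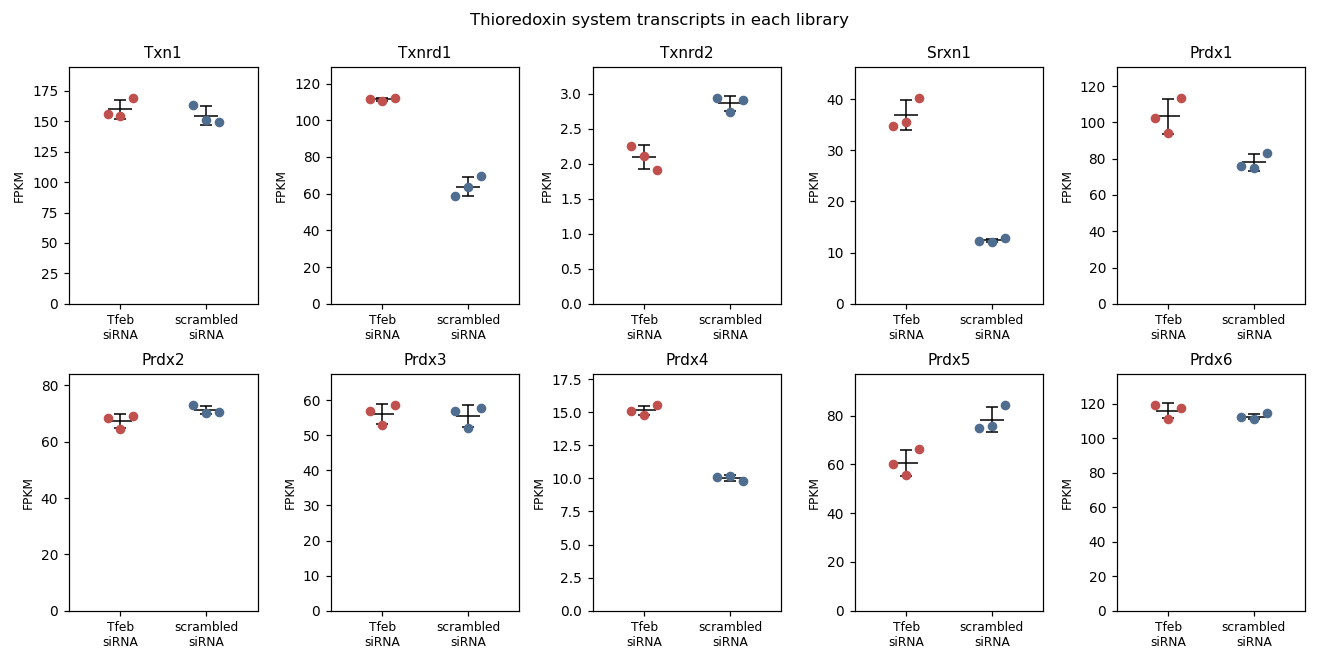
FPKM of each member in each library (points, replicates 1 to 3 from left to right within a group), with the mean and SD over 3 libraries as black lines; each vertical axis starts at 0. Srxn1, Txnrd1, Prdx4 and Prdx1 lie higher in every Tfeb siRNA library than in any scrambled siRNA library. Txnrd2, Prdx5 and Prdx2 lie lower, though Prdx2 did not pass the test.

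Sulfiredoxin changed most among the members. Srxn1 (ENSMUSG00000032802, chromosome 2, 152105516 to 152111376, plus strand) had 34.8, 35.6 and 40.2 FPKM in Tfeb siRNA replicates 1, 2 and 3, against 12.3, 12.1 and 12.8 FPKM in scrambled siRNA replicates 1, 2 and 3. Each Tfeb siRNA library was far above each scrambled siRNA library, and replicate 3 was the highest in both groups. On the log2 scale it rose by 1.53 (SE 0.07, 95% interval 1.38 to 1.69, limma adjusted p = 6.66e-05), with 706 to 2189 reads behind each value. Among tested genes ordered by mean FPKM, Srxn1 stood at rank 1522 in the Tfeb siRNA group and at rank 4409 in the scrambled siRNA group. None of its 50-base transcript words recurs in another annotated gene.

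The cytosolic and the mitochondrial thioredoxin reductase moved in opposite directions, while thioredoxin did not pass the test. Txnrd1 (ENSMUSG00000020250, chromosome 10, 82833951 to 82897712, plus strand), which recharges cytosolic thioredoxin, had 111.5, 110.7 and 112.0 FPKM in the Tfeb siRNA libraries, against 58.7, 63.5 and 69.5 FPKM in the scrambled siRNA libraries. The Tfeb siRNA libraries lay within a narrow band (SD 0.647 FPKM) and the scrambled siRNA libraries were more spread (SD 5.38 FPKM), without overlap. On the log2 scale Txnrd1 rose by 0.80 (SE 0.07, 95% interval 0.64 to 0.96, limma adjusted p = 0.000438), which is 1.74-fold on mean FPKM. Its transcripts share no 50-base word with another gene, and no exon of a neighbour overlaps its own.

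Txnrd2 (ENSMUSG00000075704, chromosome 16, 18426384 to 18479073, plus strand), the mitochondrial reductase, had the lowest level of the 10, with 2.26, 2.11 and 1.92 FPKM in the Tfeb siRNA libraries and 2.93, 2.73 and 2.91 FPKM in the scrambled siRNA libraries. All 3 Tfeb siRNA libraries were below the scrambled siRNA libraries. It rested on 163 to 269 reads per library and fell to 73.2% of the scrambled mean (log2 fold change -0.37, SE 0.09, limma adjusted p = 0.0165). Without scrambled siRNA replicate 3 the call was lost (adjusted p = 0.0584).

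Txn1 (ENSMUSG00000028367, chromosome 4, 57943373 to 57956411, minus strand), the thioredoxin of the cytosol and nucleus, was the most abundant member per kilobase. It had 156, 155 and 169 FPKM in the Tfeb siRNA libraries and 164, 151 and 149 FPKM in the scrambled siRNA libraries. The groups overlapped, and the 95% interval of the log2 fold change ran from -0.10 to 0.19 (estimate 0.05, limma adjusted p = 0.598). A change as large as that of Txnrd1 lies outside this interval, but a p above the threshold does not show that the level was the same. About 2.50% of its 50-base words recur in the pseudogene Txn-ps1, which had 2 reads in the Tfeb siRNA group and 4 in the scrambled siRNA group.

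Among the typical 2-cysteine peroxiredoxins, the substrates of sulfiredoxin, Prdx1 and Prdx4 rose and Prdx2 and Prdx3 did not pass the test. Prdx1 (ENSMUSG00000028691, chromosome 4, 116685544 to 116700822, plus strand), a cytosolic enzyme, had 102, 94.4 and 113 FPKM in the Tfeb siRNA libraries, against 75.9, 74.8 and 83.0 FPKM in the scrambled siRNA libraries. The groups did not overlap, and in both of them replicate 2 was the lowest and replicate 3 the highest. Prdx1 rose by 0.40 on the log2 scale (SE 0.08, 95% interval 0.21 to 0.59, limma adjusted p = 0.00905). About 8.81% of its 50-base words recur in 75 other annotated genes, among them predicted genes such as Gm21399 and Gm7204, and reads from those words cannot be assigned to Prdx1 alone.

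Prdx4 (ENSMUSG00000025289, chromosome X, 155323918 to 155340754, minus strand), the peroxiredoxin of the endoplasmic reticulum, couples peroxide removal to disulfide formation in new proteins. It had 15.1, 14.8 and 15.5 FPKM in the Tfeb siRNA libraries, against 10.1, 10.1 and 9.76 FPKM in the scrambled siRNA libraries. Replicates were tight in both groups, with SDs of 0.359 FPKM in the Tfeb siRNA group and 0.212 FPKM in the scrambled siRNA group, and the gap between the groups was many times wider. Prdx4 rose by 0.57 on the log2 scale (SE 0.05, limma adjusted p = 0.000461), with 430 to 632 reads behind each value.

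Prdx2 (ENSMUSG00000005161, chromosome 8, 84969587 to 84974834, plus strand), a cytosolic enzyme also abundant in red cells, had 68.6, 64.5 and 69.2 FPKM in the Tfeb siRNA libraries and 73.0, 70.3 and 70.4 FPKM in the scrambled siRNA libraries. The Tfeb siRNA values lay just below the scrambled siRNA values without overlap, but the difference did not pass the test (log2 fold change -0.08, SE 0.05, 95% interval -0.20 to 0.04, limma adjusted p = 0.27). Its exons overlap those of Junb by 173 bases and those of Rnaseh2a by 177 bases, both on the other strand; how strand was used in counting is not stated, so reads of shared bases cannot be told apart. Junb, an AP-1 subunit gene, had 86.2 ± 31.6 FPKM in the Tfeb siRNA group and 77.0 ± 24.1 FPKM in the scrambled siRNA group (SD, n = 3; limma adjusted p = 0.788), with a sign that depended on single libraries. Rnaseh2a had 7.02 ± 0.416 FPKM in the Tfeb siRNA group and 7.08 ± 0.729 FPKM in the scrambled siRNA group (limma adjusted p = 0.954). With its pseudogenes included, 12.0% of its 50-base words recur in other genes.

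Prdx3 (ENSMUSG00000024997, chromosome 19, 60864051 to 60874556, minus strand), the mitochondrial enzyme, had 56.8, 52.9 and 58.6 FPKM in the Tfeb siRNA libraries and 57.0, 52.0 and 57.7 FPKM in the scrambled siRNA libraries. The groups overlapped almost fully, and each replicate number had nearly the same level in both. The estimate on the log2 scale was 0.01 (SE 0.06, 95% interval -0.14 to 0.16, limma adjusted p = 0.881), and its sign turned with values rescaled to TPM, which sum to 1 fixed total per library (-0.01).

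The remaining peroxiredoxins differ in mechanism from the typical 2-cysteine enzymes. Prdx5 (ENSMUSG00000024953, chromosome 19, 6906697 to 6910106, minus strand), an atypical 2-cysteine enzyme, had 60.1, 55.6 and 66.2 FPKM in the Tfeb siRNA libraries, against 74.9, 75.8 and 84.3 FPKM in the scrambled siRNA libraries. Every Tfeb siRNA library was below every scrambled siRNA library, although replicate 3 was high in both groups. The estimate on the log2 scale was -0.37 (SE 0.08, 95% interval -0.56 to -0.18, limma adjusted p = 0.0126). Its exons overlap those of Trmt112, a methyltransferase cofactor gene on the other strand, by 409 bases (19.1% of the exonic bases of Prdx5). Trmt112 had 13.5 ± 2.22 FPKM in the Tfeb siRNA group and 11.3 ± 1.24 FPKM in the scrambled siRNA group (SD, n = 3; log2 fold change 0.24, limma adjusted p = 0.20) and did not pass. A replicate block gave it an adjusted p of 0.0254, and leaving out Tfeb siRNA replicate 1 gave 0.0470 (limma). The part of the shared bases in the fall of Prdx5 was not tested.

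Prdx6 (ENSMUSG00000026701, chromosome 1, 161240112 to 161251219, minus strand), the 1-cysteine peroxiredoxin that is recharged by glutathione and also has phospholipase activity, had 119, 111 and 117 FPKM in the Tfeb siRNA libraries and 112, 111 and 114 FPKM in the scrambled siRNA libraries. The groups overlapped (log2 fold change 0.04, SE 0.05, 95% interval -0.08 to 0.16, limma adjusted p = 0.556). Its level rested on 10256 to 11482 reads per library, so counting error was under 1% there (0.987% at the lowest count). The testis relative Prdx6b had 5 reads in the Tfeb siRNA group and 2 in the scrambled siRNA group.

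**Figure D2:**
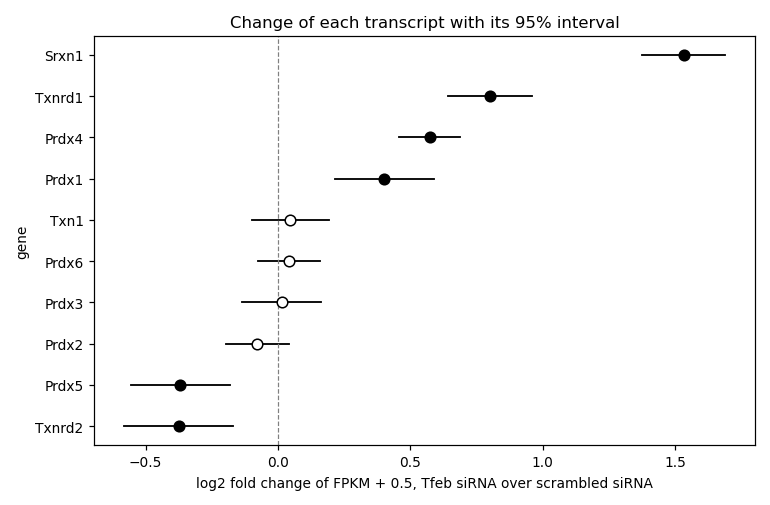
Log2 fold change of FPKM + 0.5 (Tfeb siRNA over scrambled siRNA) for each member, with its 95% interval from limma; filled points passed the adjusted p threshold of 0.05 and open points did not. Estimates run from -0.37 for Txnrd2 to 1.53 for Srxn1.

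The order of levels among the members differed between the groups in the middle of the range. FPKM compares transcripts per kilobase of merged exons, which understates a gene whose cells use only its shorter forms. In the Tfeb siRNA group the order from the top was Txn1, Prdx6, Txnrd1, Prdx1, Prdx2, Prdx5, Prdx3, Srxn1, Prdx4 and Txnrd2. Libraries of neighbours overlapped there between Prdx6 and Txnrd1, Txnrd1 and Prdx1, Prdx2 and Prdx5, and Prdx5 and Prdx3. In the scrambled siRNA group the order was Txn1, Prdx6, Prdx5, Prdx1, Prdx2, Txnrd1, Prdx3, Srxn1, Prdx4 and Txnrd2, and only Prdx5 and Prdx1 overlapped. Txnrd1 was thus the third in the Tfeb siRNA group and the sixth in the scrambled siRNA group, and Prdx5 was the sixth in the Tfeb siRNA group and the third in the scrambled siRNA group.

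Ratios within a library remove its overall scaling and describe the balance between members; since the pairs were chosen with the results known, they carry no test. Srxn1 stood at 14.3, 15.7 and 15.7 FPKM per 100 FPKM of Prdx1 to Prdx4 combined in the Tfeb siRNA libraries, against 5.68, 5.84 and 5.80 in the scrambled siRNA libraries. The transcript of the repair enzyme was therefore higher relative to those of its substrates in each Tfeb siRNA library. Txnrd1 stood at 71.4, 71.6 and 66.2 FPKM per 100 FPKM of Txn1 in the Tfeb siRNA libraries, against 35.9, 42.0 and 46.5 in the scrambled siRNA libraries. The ratio of Txnrd1 to Txnrd2 was 53.4 ± 4.56 in the Tfeb siRNA group and 22.4 ± 2.05 in the scrambled siRNA group (SD, n = 3). The ratio of Prdx1 to Prdx5 was 1.70, 1.70 and 1.71 in the Tfeb siRNA libraries, against 1.01, 0.987 and 0.985 in the scrambled siRNA libraries. The levels of both genes varied more between libraries of a group than their ratio did.

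**Figure D3:**
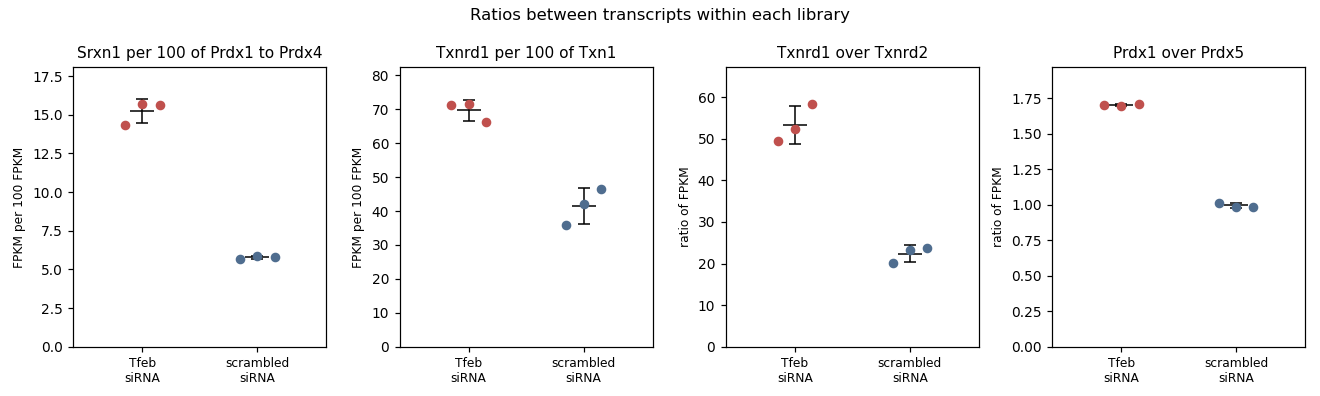
Ratios of FPKM between members within each library (points, replicates 1 to 3 from left to right), with the mean and SD over 3 libraries as black lines; each vertical axis starts at 0. In all 4 panels the Tfeb siRNA libraries lie above the scrambled siRNA libraries without overlap.

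The summed peroxiredoxin level overlapped between the groups, while its make-up differed. The 6 peroxiredoxins together had 422, 393 and 440.3 FPKM in the Tfeb siRNA libraries and 403, 394 and 419.5 FPKM in the scrambled siRNA libraries. Prdx1 made up 24.6% ± 0.945 of this sum in the Tfeb siRNA group and 19.2% ± 0.516 in the scrambled siRNA group (SD, n = 3). Prdx5 made up 14.5% ± 0.490 in the Tfeb siRNA group and 19.3% ± 0.764 in the scrambled siRNA group. Prdx4 was a small part, with 3.62% ± 0.127 in the Tfeb siRNA group and 2.47% ± 0.128 in the scrambled siRNA group. These shares are of transcripts per kilobase and do not give protein.

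Other genes of thiol redox chemistry moved in both directions. Of 23 tested genes (thioredoxin relatives, glutaredoxins, sestrins, methionine sulfoxide reductases, ribonucleotide reductase and others), 4 rose, 6 fell and 13 did not pass. Over all tested genes 16.9% were higher and 16.4% lower, so with so few genes these counts are not a result about the list. The median log2 fold change was -0.07, against 0.02 over all tested genes. Gsr, which recharges glutathione as Txnrd1 recharges thioredoxin, had 33.7 ± 1.95 FPKM in the Tfeb siRNA group and 18.9 ± 3.10 FPKM in the scrambled siRNA group (SD, n = 3; log2 fold change 0.83, SE 0.12, limma adjusted p = 0.00273). Map3k5, the stress kinase ASK1 that reduced thioredoxin inhibits, had 2.16 ± 0.225 FPKM in the Tfeb siRNA group and 1.36 ± 0.224 FPKM in the scrambled siRNA group (limma adjusted p = 0.0202). Its call was lost without Tfeb siRNA replicate 1 or 2 or scrambled siRNA replicate 1 or 3 (adjusted p = 0.0532 to 0.0669). The number of these genes that rose was 1 without Tfeb siRNA replicate 1 or scrambled siRNA replicate 1 or 3, and 2 without Tfeb siRNA replicate 2 or 3. Txndc17, a thioredoxin-like protein, fell to 60.7% of its scrambled mean (48.1 ± 2.71 and 79.3 ± 8.61 FPKM, Tfeb siRNA and scrambled siRNA; limma adjusted p = 0.00141). Glrx2, the mitochondrial glutaredoxin, fell to 58.8% (1.53 ± 0.0417 and 2.60 ± 0.165 FPKM, in the same order; limma adjusted p = 0.00293).

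Among direct partners of the members, chosen here after their values were seen, Txnip and Txnrd3 were called lower and Txn2 did not pass the test. Txnip, the protein that binds and inhibits thioredoxin, had 23.6, 25.9 and 29.0 FPKM in the Tfeb siRNA libraries, against 34.2, 32.1 and 31.9 FPKM in the scrambled siRNA libraries (log2 fold change -0.32, SE 0.08, limma adjusted p = 0.0201). That call was lost without Tfeb siRNA replicate 2 (adjusted p = 0.0602) or scrambled siRNA replicate 1 (0.0549). Txn2, the mitochondrial thioredoxin that Txnrd2 recharges, had 32.3 ± 0.724 FPKM in the Tfeb siRNA group and 33.3 ± 0.485 FPKM in the scrambled siRNA group and did not pass (limma adjusted p = 0.504). Txnrd3, the reductase that also carries a glutaredoxin domain, had 13.0 ± 0.266 FPKM in the Tfeb siRNA group and 15.5 ± 1.05 FPKM in the scrambled siRNA group (limma adjusted p = 0.0235). Without any 1 library other than scrambled siRNA replicate 1 its adjusted p was above 0.05 (up to 0.0716, without Tfeb siRNA replicate 2).

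The supply of NADPH, the electron source of the reductases, was represented by 5 tested genes. Of these 2 rose and 0 fell in limma, against 16.9% higher and 16.4% lower over all tested genes. At an unadjusted p under 0.05 0 were lower as well, and 0 with voom. G6pdx, given after its value was seen, was lower in every Tfeb siRNA library than in any scrambled siRNA library. Its means were 23.1 FPKM with Tfeb siRNA and 25.2 FPKM with scrambled siRNA, and it did not pass (limma unadjusted p = 0.0525, adjusted p = 0.117). Pgd, an enzyme of the pentose phosphate pathway, had 37.7 ± 1.12 FPKM in the Tfeb siRNA group and 21.8 ± 0.306 FPKM in the scrambled siRNA group (limma adjusted p = 0.000197). Me1, the malic enzyme, had 41.8 ± 1.58 FPKM in the Tfeb siRNA group and 32.1 ± 1.07 FPKM in the scrambled siRNA group (limma adjusted p = 0.00233). Among 6 enzymes that make or remove superoxide and peroxide, 2 rose, 1 fell and 3 did not pass. With so few genes these counts are not a result about the list. Sod3, the extracellular superoxide dismutase, rose 3.01-fold to 4.10 ± 0.387 FPKM in the Tfeb siRNA group, against 1.36 ± 0.245 FPKM in the scrambled siRNA group. Cat, catalase, had 44.5 ± 5.70 FPKM in the Tfeb siRNA group and 33.9 ± 0.617 FPKM in the scrambled siRNA group (limma adjusted p = 0.0184), but leaving out Tfeb siRNA replicate 1 (0.0533) or scrambled siRNA replicate 2 (0.0543) ended that call and left 1 riser, Sod3. Cyba, the p22phox subunit of NADPH oxidases, fell to 129 ± 6.58 FPKM in the Tfeb siRNA group, against 171 ± 9.65 FPKM in the scrambled siRNA group.

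Genes that insert selenocysteine, which thioredoxin reductases need, were also counted. Of 7 tested genes 0 rose and 2 fell in limma, against 16.9% higher and 16.4% lower over all tested genes. With so few genes these counts are near the shares of all genes and are not a result about the list; 0 were higher at an unadjusted p under 0.05, and 0 with voom. Sepsecs, which makes selenocysteinyl-tRNA, had 2.52 ± 0.373 FPKM in the Tfeb siRNA group and 3.72 ± 0.374 FPKM in the scrambled siRNA group (limma adjusted p = 0.0191), and Sephs1 fell to 79.2% of its scrambled mean. The call of Sepsecs was lost without scrambled siRNA replicate 1 (adjusted p = 0.0560) or 2 (0.0566), which left 1 gene lower.

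NRF2 and its classic targets were set beside the members because Txnrd1, Prdx1 and Srxn1 belong to the same response. Of 8 tested genes 6 rose and 0 fell, against 16.9% higher and 16.4% lower over all tested genes. Their median log2 fold change was 0.58, against 0.02 over all tested genes. The risers include Nfe2l2 itself and Bach1 (limma adjusted p = 0.0229), while Hmox1 did not pass (limma adjusted p = 0.0901). Bach1 and Hmox1 are given after their values were seen. The number that rose was 5 with TPM, 7 with voom or a replicate block, and 5 to 6 without 1 library in turn. Keap1, which holds NRF2 in check, was the 1 gene with a lower mean and did not pass (limma unadjusted p = 0.186, adjusted p = 0.299), and 0 were lower with voom. Nqo1 and Gclm rose most. Nqo1, a quinone reductase, had 43.5 ± 3.84 FPKM in the Tfeb siRNA group and 8.88 ± 2.27 FPKM in the scrambled siRNA group. Nfe2l2, which encodes NRF2 and is given after its value was seen, had 33.7 ± 2.40 FPKM in the Tfeb siRNA group and 22.3 ± 0.581 FPKM in the scrambled siRNA group.

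**Figure D4:**
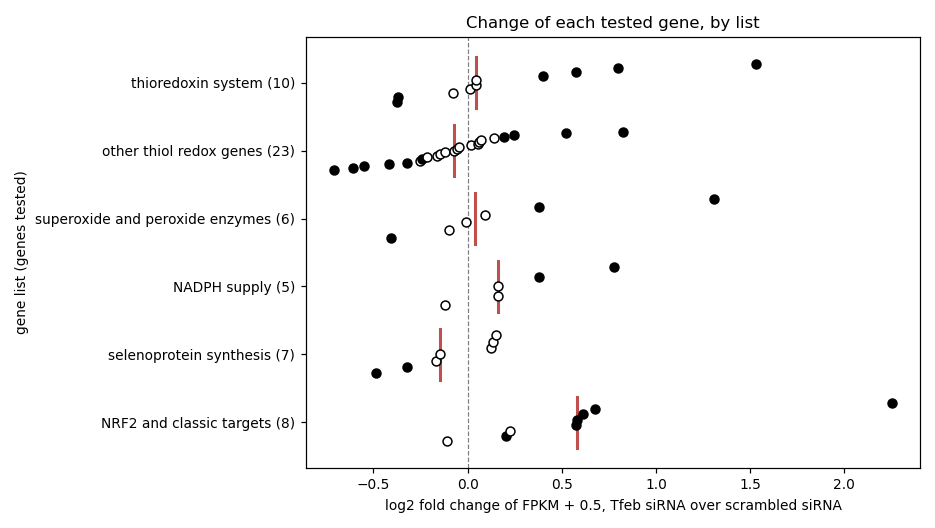
Log2 fold change of FPKM + 0.5 (Tfeb siRNA over scrambled siRNA) of each tested gene, by list, with the number tested in brackets; filled points passed the adjusted p threshold of 0.05, open points did not, and red lines mark the medians. The 10 thioredoxin system genes spread from -0.37 to 1.53 around a median of 0.04, and the NRF2 list has a median of 0.58.

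An siRNA strand can also lower transcripts that pair with its bases 2 to 8. The sequences of both siRNAs are unknown here. Among 7-base words in the longest annotated 3′ UTR of 10474 tested genes, CTACATA separated the genes that were lower most strongly: 34.4% of its 1107 carriers were lower, against 15.9% of genes without it. For genes that were higher, the leading word was CGGAGAA (38.3% of 334 carriers, against 17.3%). Of the 10 members 0 carry either word, Prdx5 and Txnrd2, which fell, included. Most of the 10474 genes lack these words too (1107 and 334 carriers), so this count is not a result about the members. Srxn1 carries TGTCACG, the third word for genes that were higher (29.6% of 379 carriers, against 17.5%), and Txn1 carries ACATAAA, the third word for genes that were lower. Txnrd2, which fell, carries TGTCACT, the fourth word for genes that were higher (23.2% of 1897 carriers, against 16.8%). The words were ranked on the same fold changes and are a description, and the part of these words in the changes of Srxn1 and Txnrd2 was not tested.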

How the data were processed

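RNA of 6 libraries was measured by sequencing, 3 per group; sample titles gave the group and replicate number. Total RNA was isolated with TRIzol, per the labels' protocols. The deposited table holds FPKM values with gene positions and lengths, per the file headers, and mm10 is the build named in the submitters' processing notes. For aligner, counter and strand use the entry is: not given in the sources used here. FPKM multiplied by gene length gave whole steps of 1 size per library (100% of values above 0, tolerance 1e-06), so whole reads were derived; the number of columns of other samples was 0. Intervals and counting errors cover counting or replicate spread only. No label says whether replicates came from separate cultures; the p-values then reflect the spread among these libraries alone, and it may be technical.

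The test was limma (version 3.58.1, R 4.3.3), applied to log2(FPKM + 0.5) of the 12257 genes whose mean reached 1 FPKM, with eBayes and a mean-variance trend, two-sided, Benjamini-Hochberg adjusted. Fold changes are on that scale and understate low genes. Errors are SD over n = 3 or the model SE. The script was tested on simulated data. Alternatives were another pseudocount, filter or scaling (TPM), voom on derived reads, a replicate block and leaving out each library. Same-numbered libraries had residual correlations of 0.382, 0.129 and 0.166. Libraries with unlike numbers ran from -0.239 to 0.106, the highest for Tfeb siRNA replicate 2 with scrambled siRNA replicate 3. Only replicate 1 stood clearly apart, so whether the numbers pair the libraries is uncertain, and no label says so. The main test therefore ignores any pairing, and the replicate block is an alternative only. GENCODE M21 gave exons, 3′ UTRs and 50-base transcript words, and all 10 members had the same start, end and merged exon length there. RefSeq GRCm38.p6 gave promoters. Some items are not reported here. The members and lists were chosen with earlier results of these data known. The members were all named; of each list, the 2 called genes with the largest rise and the 2 with the largest fall.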

Additional observations from a re-analysis of the deposited data

How the results depend on the processing

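With 13 alternatives, the 4 members that rose kept that call in each, with log2 fold changes of 1.47 to 1.57 for Srxn1, 0.74 to 0.86 for Txnrd1, 0.55 to 0.60 for Prdx4 and 0.33 to 0.47 for Prdx1, and Prdx5 kept its call at -0.43 to -0.31 (highest adjusted p = 0.0448). The number of members that fell was 1 with a filter of a mean of 5 FPKM, which removes Txnrd2, and 1 to 2 without 1 library in turn. Prdx3, which was not called, had a log2 fold change of -0.014 with TPM, and of -0.031 to 0.056 without 1 library in turn. Junb, also not called (0.14), was at -0.08 without Tfeb siRNA replicate 2 and at -0.15 without scrambled siRNA replicate 1 (-0.15 to 0.48 without 1 library in turn). The number of other thiol redox genes called higher was 1 with no filter on low values and 1 to 3 without 1 library in turn; the cause was not tested, except that fewer libraries enter each fit. With the replicate number as a block, 4 members rose and 2 fell, and 4928 genes were called in all, against 4080. The block was not run singly for Rnaseh2a, G6pdx, Bach1, Hmox1 and the cell type markers. Among the members, Tfeb, Junb, Trmt112 and the other genes named from the redox and NRF2 lists, it changed the call of Trmt112 alone. With no filter on low values the calls of Txnip (limma adjusted p = 0.0501), Map3k5 (0.0648), Cat (0.0505) and Sepsecs (0.0578) were lost. Without 1 library in turn, 2783 to 3423 genes were called, and Tfeb stayed between -1.12 and -0.99. Depth limits mainly Txnrd2 (163 reads at the lowest).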
